A study of Mus musculus with 6 samples.

Results

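The 46 genes described here encode the antioxidant, glutathione and NRF2 machinery of the cell. They were chosen by symbol, with no threshold on measured values but with earlier results of these data known, and are 46 of the 52183 genes in the deposited table. By role they fall into 7 genes of the NRF2 pathway, 21 genes of glutathione synthesis and use, 11 thioredoxin and peroxiredoxin genes, 3 dismutase and catalase genes, and 4 genes of iron or metal binding.

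RNA sequencing was done on haematopoietic stem cells sorted from the bone marrow of 4-month-old female mice. The 3 libraries of 1 group carry the genotype label control and the 3 of the other carry the label Thbs1 knockout; Thbs1 encodes thrombospondin-1, a secreted matrix glycoprotein. Input was 2 ng of total RNA per library, amplified with the SMART-Seq v4 kit, which copies poly(A) RNA from very small inputs and does not mark strand. Mouse strain, the kind of control, the deleted part of Thbs1 and whether each library came from a separate animal are unstated in the labels, so p-values reflect library-to-library spread, which may be partly or wholly technical. In bulk samples such as these, fewer cells of a type and less RNA per cell cannot be told apart.

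NRF2, encoded by Nfe2l2, is a transcription factor that KEAP1 holds in the cytoplasm and sends for degradation until electrophiles or oxidants modify KEAP1. In the nucleus it pairs with small MAF proteins at antioxidant response elements, where BACH1 competes with it, and raises enzymes that make and use glutathione, reduce thioredoxin and detoxify quinones and heme. Superoxide dismutases turn superoxide into hydrogen peroxide, which catalase, glutathione peroxidases and peroxiredoxins remove. Stem cells of the bone marrow are known to be sensitive to reactive oxygen.

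Thbs1 (ENSMUSG00000040152, chromosome 2, 118111876 to 118127133, GRCm38) did not follow its label. It stood at 4.12, 13.8 and 2.33 FPKM (fragments per kilobase of exon, scaled to the size of each library) in control libraries 1 to 3 and at 10.8, 8.5 and 7.68 in the libraries labelled knockout 1 to 3. The groups overlapped (log2 change 0.65 ± 0.43, adjusted p = 0.503), and without control library 2 the gene was higher in the libraries labelled knockout (1.26, adjusted p = 0.0344). Directions below therefore follow the labels alone. The library size used for scaling, read from the steps between low FPKM values, was 22730000 to 30890000 reads. Whether it equals the number of mapped reads is unstated in the labels. All 12 stem cell markers passed the low-value filter. They summed to 827 to 922 FPKM in control libraries and 830 to 935 FPKM in those labelled knockout. Only Ly6a was called, and it fell (115 ± 6.78 to 76.9 ± 11.1 FPKM). An unadjusted limma p under 0.05 was found for 5 of the 12, and for 16.4% of all tested genes. Slamf1 (mean 8.34 and 6.32 FPKM) and Hlf (73.05 and 63.5) were also lower in every library labelled knockout. Procr (45.4 and 59.3) and Fgd5 (8.24 and 11.1) were higher in every one. All 3 tested multipotent progenitor markers had a change below 0, and 0 were called. Of these, Flt3 (8.96 ± 0.791 and 6.80 ± 0.645 FPKM) had an unadjusted p under 0.05. Markers of mature cells were mixed. Ly6g and Lcn2 of neutrophils were at 0, and Adgre1 and Csf1r of macrophages, the Cd3 genes and Slc4a1 of red cells stayed under 1 FPKM everywhere. Other genes of the same lists were well above 0: in control libraries and those labelled knockout, Lyz2 stood at 367 ± 20.7 and 345 ± 18.1 FPKM, Prtn3 at 83.0 ± 13.9 and 63.6 ± 5.01, Nkg7 at 88.6 ± 14.6 and 54.6 ± 5.85, Car1 at 57.1 ± 10.9 and 64.3 ± 38.5, and platelet-lineage Pf4 at 315 ± 42.3 and 189 ± 48.4. The 8 genes taken as signs of handling stress, mostly heat-shock genes, summed to 423 to 480 FPKM in control libraries and 743 to 855 FPKM in those labelled knockout. Most of these sums was Hspa8 (mean 344 and 620 FPKM). Of the 7 tested, 5 were called higher (Hspa8, Hsph1, Hspa1b, Dnajb1 and Egr1), beside 0.566% of all tested genes. Jun overlapped between the groups, and Fos was lower in every library labelled knockout without passing the test (1.18 ± 0.02 and 0.89 ± 0.209 FPKM).

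Promoter sequence is shown for the 3 called genes with an entry among the RefSeq promoters (GRCm38.p6, 250 bases before to 50 after the start), because NRF2 acts through DNA there. Of the 46 genes, 40 had an entry, with 50 promoters; Hmox1, Gclc, Gsr, Gsta4, Gstt2 and Prdx6 had none. The stretches below run 5′ to 3′ on the gene's strand from 150 to 40 bases before the start; Nqo1 and Gstm2 lie on the minus strand and Sod1 on the plus strand. Capitals mark the core of the antioxidant response element, TGACNNNGC, on either strand.
Nqo1, chr8:107403245-107403355: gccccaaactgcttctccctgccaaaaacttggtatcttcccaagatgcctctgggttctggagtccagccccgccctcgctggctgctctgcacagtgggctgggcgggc
Gstm2, chr3:107986460-107986570: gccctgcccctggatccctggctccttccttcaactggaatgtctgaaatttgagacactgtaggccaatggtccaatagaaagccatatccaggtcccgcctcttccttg
Sod1, chr16:90220612-90220722: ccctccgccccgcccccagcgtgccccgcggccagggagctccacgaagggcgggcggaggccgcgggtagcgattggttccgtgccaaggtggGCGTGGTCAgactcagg
The Nqo1 and Gstm2 promoter windows hold no such letters, and Sod1 holds them on the opposite strand, 56 bases before the start. Only 250 bases before to 50 after the start were searched, so a core further from any gene's start would be missed. A match is a description of letters and not of a bound site.

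The core was found in 12 of the 50 promoters (24.0%), compared with 12.4% of all 32851 promoters of the same length and 14.5% of the 11424 promoters of tested genes. The 12 genes are Nfe2l2, Mafg, Mafk, Gclm, Gstm5, Gstm7, Mgst1, Txnrd1, Srxn1, Prdx1, Sod1 and Mt2. Of these, only Sod1 was among the genes called between the groups. Shown for comparison are 49 bases around the core in Gclm (glutathione synthesis), Txnrd1 (thioredoxin reduction) and Prdx1 (peroxide removal), all on the plus strand and all matched on the opposite strand.
Gclm, chr3:122245403-122245451: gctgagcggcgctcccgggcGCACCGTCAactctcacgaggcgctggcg
Txnrd1, chr10:82859094-82859142: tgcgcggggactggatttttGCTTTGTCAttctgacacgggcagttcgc
Prdx1, chr4:116685446-116685494: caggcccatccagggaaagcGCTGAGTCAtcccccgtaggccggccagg
The metal response element cores, read by the zinc sensor MTF1, were searched on both strands as TGCACNC and TGCGCNC. They were in 6 and 9 of the 50 promoters, where 12.6% and 15.4% of all promoters and 12.9% and 26.6% of those of tested genes hold them. Both metallothionein genes held each of them.

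These genes were expressed at high levels in the stem cells. Their median was 36.9 FPKM over the 6 libraries, and that of all 12555 tested genes was 8.81. The genes were chosen with earlier results of these data known, and of 126 further pathway genes 108 passed the filter on low values. All 46 genes passed the filter of at least 1 FPKM in at least 3 libraries; 12 stood above 100 FPKM, 27 between 10 and 100, and 7 below 10. Fth1, the iron-storing ferritin heavy chain, came first at 1888 FPKM, and Gpx1, the cytosolic glutathione peroxidase, came next at 979, each separate from its lower neighbour in every library. Txn1 (346 FPKM), the cytosolic thioredoxin, and Prdx1 (310 FPKM), a cytosolic peroxiredoxin, overlapped each other. Prdx1 lay above Ftl1, the ferritin light chain (254 FPKM), and Ftl1 above Gpx4, which reduces lipid peroxides (160 FPKM).

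Below them, Gpx4, Prdx6, Gstp1, Gstm1, Gsto1 and Sod1 followed within 134 to 160 FPKM, with overlapping ranges between neighbours. Of the 45 neighbouring pairs in the order of levels, 10 had ranges that did not overlap. The lowest were Bach1 at 3.60 FPKM, Mgst2 at 2.72 and Mt2 at 0.793. Mt2 rested on as few as 3 reads in a library, and every other gene on at least 159. Of the Mt2 exon bases, 73.5% are shared with Gm45774 on the opposite strand, which stood at 0.003 FPKM. The next largest shares were 26.5% of Ftl1 with Gm10252 (0.025 FPKM) and 19.1% of Prdx5 with Trmt112 (72.3 FPKM), also opposite. The kit does not mark strand, and how reads over both genes were counted is unstated in the labels. The levels of Mt2, Ftl1 and Prdx5 may therefore be too low or mixed. FPKM divides by the merged exons of all transcripts, and for 15 genes these are more than 2 times as long as the gene's first annotated transcript, which lowers their level against other genes. On the length of that transcript Fth1 would stand at 7049 FPKM, Prdx1 at 1076 and Sod1 at 830.

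**Figure D1:**
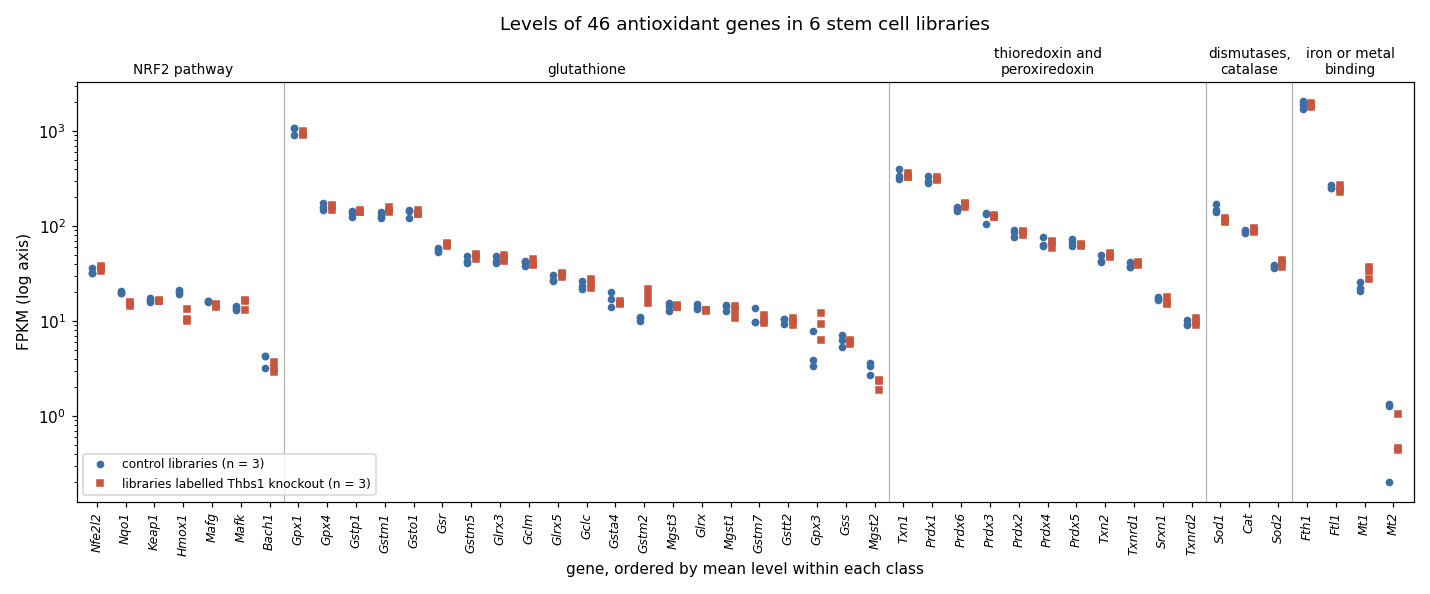
FPKM of the 46 genes in each library on a log axis, grouped by role. Points are the 3 control libraries and the 3 labelled knockout. Ferritin heavy chain Fth1 and Gpx1 lie highest and Mt2 lowest, and most genes keep a narrow range across the 6 libraries.

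The levels varied little. In 39 of the 46 genes the highest library was less than 1.5-fold above the lowest. The median SD within groups was 0.11 on the log2(FPKM + 1) scale, beside 0.14 over all tested genes. The tested genes have a lower median level (8.81 FPKM beside 36.9) and were not matched by level. Mt2 had the widest spread, 6.65-fold, at its low read number. Gpx3, the secreted glutathione peroxidase, also varied, standing at 3.38, 7.83 and 3.91 FPKM in control libraries and at 9.23, 12.06 and 6.34 in those labelled knockout. These values overlap between the groups (log2 change 0.79 ± 0.27, adjusted p = 0.190).

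Between the groups, 4 of the 46 genes passed an adjusted p of 0.05 in limma: Gstm2 rose and Hmox1, Nqo1 and Sod1 fell in the libraries labelled knockout. That is 8.70% of the 46, beside 1.56% of all tested genes. Leaving out any 1 of the 6 libraries left Hmox1 as the only one of the 3 falls, and without control library 3 or library 2 labelled knockout 0 genes rose. By direction, 2.17% were higher (0.566% of all genes) and 6.52% lower (0.996% of all genes). Looser measures lay close to the background: 9 of 46 (19.6%) had an unadjusted p under 0.05 against 16.4% of all genes, and 11 of 46 (23.9%) had groups that did not overlap against 22.8%. The median log2 change was 0.01 in the 46 genes and 0.01 in all, with 24 of the 46 above 0 and 22 below. The median size of the change was 0.09 in the 46 and 0.12 in all, without matching by level. When FPKM were rescaled to TPM, 14 of the genes were called higher and 1 lower. Under that scaling, in which 15277 genes were tested, the median change of all genes was 0.19 and 94.0% of all calls were higher, against 0.01 and 36.2% without it. The FPKM summed over all genes was 373903 to 408725 in control libraries and 329434 to 339652 in those labelled knockout.

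**Figure D2:**
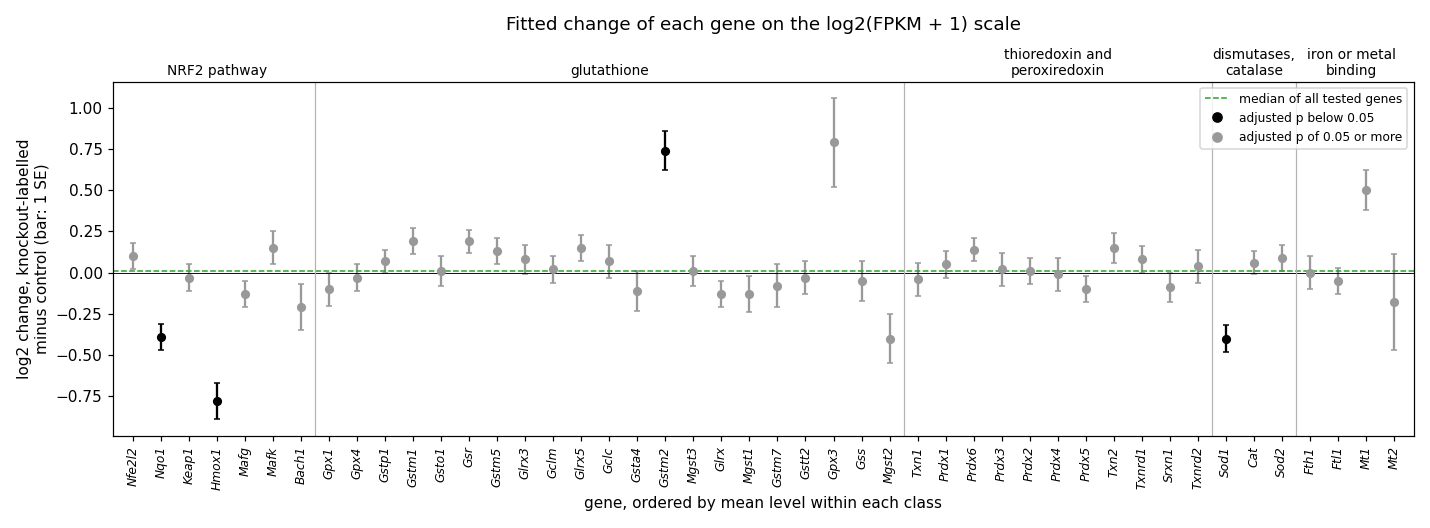
Log2 change of each of the 46 genes, libraries labelled knockout minus control on the log2(FPKM + 1) scale, with limma's moderated standard error, grouped by role; the dashed line is the median of all tested genes, 0.01. Black points are the 4 genes with an adjusted p under 0.05, Gstm2 above 0 and Hmox1, Nqo1 and Sod1 below 0.

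Of the 7 genes of the NRF2 pathway, 2 fell, 0 rose and 5 were not called. Both that fell are classical NRF2 target enzymes, and they are the only enzymes in this class, the other 5 being regulators. Among the 46 genes, enzymes that make glutathione or reduce thioredoxin, processes NRF2 also raises, were not called. These were Gclc (log2 change 0.07), Gclm (0.02), Gss (-0.05), Txnrd1 (0.08) and Txnrd2 (0.04). Gstm2, which uses glutathione, rose (0.74). Hmox1 (ENSMUSG00000005413, chromosome 8, 75093621 to 75100589) encodes heme oxygenase 1, which breaks heme into biliverdin, iron and carbon monoxide. It stood at 19.2, 20.1 and 21.3 FPKM in control libraries and at 10.02, 13.5 and 10.6 FPKM in those labelled knockout. Every library labelled knockout lay well below every control. The mean went from 20.2 ± 1.07 to 11.4 ± 1.88 FPKM (SD, n = 3 each), 1.77-fold lower (log2 change -0.78 ± 0.11, adjusted p = 0.0112). The call held without any 1 library (adjusted p 0.00434 to 0.04995) and was lost with no filter on low values (0.132; the 8 alternatives that keep all libraries spanned 0.00285 to 0.132).

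Nqo1 (ENSMUSG00000003849, chromosome 8, 107388225 to 107403206) encodes the quinone reductase that spares cells quinone radicals. Its values were 19.7, 20.6 and 19.8 FPKM in control libraries and 15.2, 14.4 and 15.7 FPKM in those labelled knockout. The 2 groups were tight and did not overlap. The mean was 20.04 ± 0.486 against 15.1 ± 0.653 FPKM, 1.33-fold lower (log2 change -0.39 ± 0.08, adjusted p = 0.0418). The call was lost when any 1 of the 6 libraries was left out (adjusted p 0.0901 to 0.151) and held in 4 of the other 8 alternatives (0.0268 to 0.167).

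The regulators of the pathway were not called. Nfe2l2 itself stood at 33.5 ± 2.45 and 36.1 ± 2.09 FPKM and Keap1 at 16.7 ± 0.874 and 16.4 ± 0.326 FPKM. Bach1, the repressor of Hmox1, was low, at 3.93 ± 0.615 and 3.26 ± 0.383 FPKM. Of the small MAF partners, Mafg was below the controls in every library labelled knockout (16.1 ± 0.208 and 14.7 ± 0.628 FPKM), whereas Mafk overlapped (13.7 ± 0.576 and 15.4 ± 1.98 FPKM). Of 19 tested further NRF2 regulators and targets, 0 were called by limma and 0 had an unadjusted p under 0.05. The nearest were the drug exporter Abcc1 (log2 change -0.18, adjusted p = 0.333; 0.01 under TPM) and the small MAF gene Maff (0.17, adjusted p = 0.407). The cystine importer Slc7a11 was near 0, at no more than 0.11 FPKM in any library.

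Called handling-stress genes were higher in the libraries in which Hmox1 and Nqo1 were lower: Hspa8, a heat-shock chaperone, stood at 344 ± 20.3 and 620 ± 40.7 FPKM (log2 change 0.85 ± 0.08, adjusted p = 0.000921). Markers of macrophages, cells that express heme oxygenase 1, summed to 362 to 404 FPKM in control libraries and to 342 to 371 FPKM in those labelled knockout, nearly all of it Lyz2. None of the 4 tested was called by limma (1 had an unadjusted p under 0.05, Cd68, at 11.7 ± 1.66 and 7.40 ± 1.49 FPKM). C1qa (2.43 ± 0.494 and 2.03 ± 0.526 FPKM) and C1qb (4.58 ± 0.320 and 4.72 ± 0.797) were present in every library and overlapped between the groups. Adgre1, Csf1r and Ccr2 stayed under 1 FPKM. The only B cell marker tested, Cd79b (28.1 ± 1.36 and 24.4 ± 1.05 FPKM), was lower in every library labelled knockout. It had an unadjusted p under 0.05 and was not called. Summed platelet-lineage markers were 391 to 494 FPKM in control libraries and 272 to 380 FPKM in those labelled knockout, with 0 of 7 called (1 with an unadjusted p under 0.05, Pf4). Red-cell markers summed to 97.2 to 118 FPKM in control libraries and 61.4 to 131 FPKM in those labelled knockout, and 1 of 7 tested was called: the globin gene Hbb-bt fell (14.8 ± 4.50 to 4.06 ± 0.462 FPKM, log2 change -1.61 ± 0.18, adjusted p = 0.00247). T and NK cell markers summed to 74.4 to 101 and 52.2 to 63.4 FPKM, almost all of it Nkg7, which fell (log2 change -0.68 ± 0.12, adjusted p = 0.0332). The part of these values in the falls of Hmox1, Nqo1 and Sod1 and in the rise of Gstm2 was not tested.

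**Figure D3:**
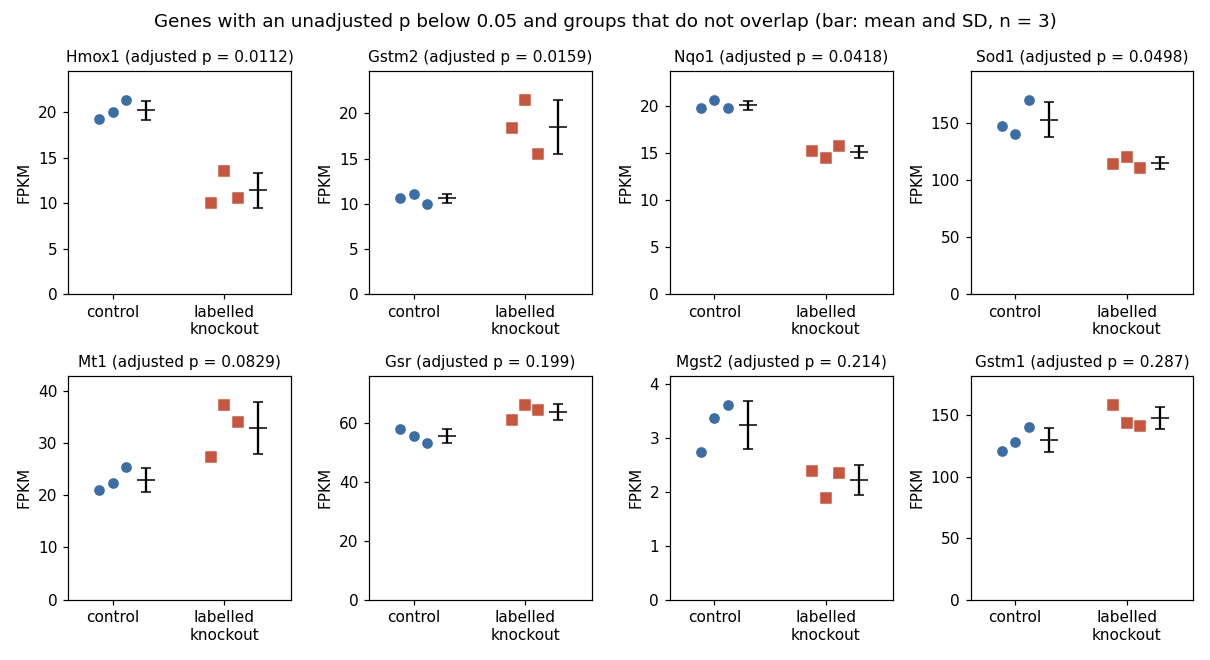
FPKM in each library for the 8 genes with groups that did not overlap and an unadjusted p under 0.05; the cross beside each group is the mean with the SD over 3 libraries, and axes start at 0. Hmox1, Nqo1, Sod1 and Mgst2 are lower, and Gstm2, Mt1, Gsr and Gstm1 higher, in every library labelled knockout.

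Of the 21 glutathione genes, Gstm2 rose, 0 fell and 20 were not called. Gstm2 (ENSMUSG00000040562, chromosome 3, 107981702 to 107986453) encodes a mu-class glutathione transferase, an enzyme that couples glutathione to electrophiles. Control libraries had 10.7, 11.1 and 10.04 FPKM, and those labelled knockout 18.4, 21.5 and 15.5 FPKM. The lowest library labelled knockout was well above the highest control. The mean went from 10.6 ± 0.517 to 18.5 ± 2.98 FPKM, 1.74-fold higher (log2 change 0.74 ± 0.12, adjusted p = 0.0159). The call was lost without control library 3 (adjusted p = 0.0606), library 1 labelled knockout (0.0519) or library 2 labelled knockout (0.0560), with no filter (0.15) and without the intensity trend (0.0610); over all 14 alternatives the range was 0.00495 to 0.15.

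Gstm2 lies in a cluster of 7 Gstm genes that spans 149 kb of chromosome 3, in the order Gstm5, Gstm7, Gstm6, Gstm3, Gstm2, Gstm1 and Gstm4. No other gene of the cluster was called. Gstm1, its neighbour and the most abundant, stood at 120.5, 128 and 140.5 FPKM in control libraries and at 158, 143 and 141 FPKM in those labelled knockout. These groups only just separate (log2 change 0.19 ± 0.08, adjusted p = 0.287). The other neighbours overlapped or were near 0: Gstm4 had 14.7 and 16.4 FPKM on average, Gstm5 43.9 and 48.0, and Gstm7 11.1 and 10.4, while Gstm6 and Gstm3 stayed under 1 FPKM. Gstm2 made up 5.03% of the summed Gstm level in control libraries and 7.65% in those labelled knockout, and Gstm1 61.5% and 61.1%.

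**Figure D4:**
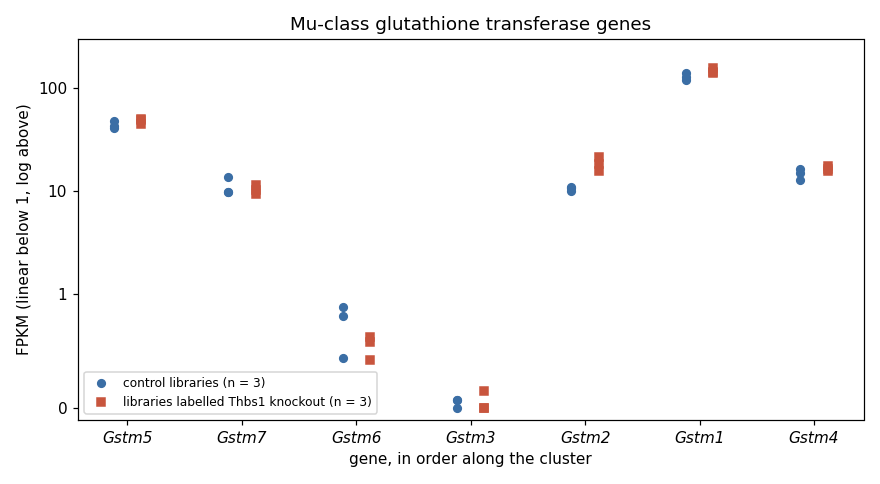
FPKM of the 7 genes of the Gstm cluster in chromosome order, per library, on an axis that is linear below 1 FPKM and logarithmic above. Gstm2 alone among them was called between the groups; Gstm1 is the most abundant and Gstm3 and Gstm6 lie under 1 FPKM.

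Because the family members are alike, reads can be shared between them, and how such reads were counted is unstated in the labels. The coding sequence of Gstm2 is identical to that of Gstm1 at 86.9% of 639 aligned bases, to Gstm7 at 86.2%, to Gstm4 at 83.1% and to Gstm5 at 73.4%. An 81-base stretch near the start of the coding sequence shows how they differ; capitals mark bases unlike Gstm2. The stretch covers coding bases 40 to 120 in Gstm2, Gstm1 and Gstm7 and 49 to 129 in Gstm5.
Gstm2: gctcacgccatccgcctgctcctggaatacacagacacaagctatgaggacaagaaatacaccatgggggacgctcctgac
Gstm1: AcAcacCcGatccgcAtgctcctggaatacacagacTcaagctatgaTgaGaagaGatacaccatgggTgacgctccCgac
Gstm5: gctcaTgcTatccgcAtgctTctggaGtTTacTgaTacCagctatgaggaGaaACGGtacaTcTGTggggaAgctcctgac
Gstm7: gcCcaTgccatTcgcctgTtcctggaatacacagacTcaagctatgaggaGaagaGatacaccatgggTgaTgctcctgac
In this stretch Gstm1 differs at 11 bases, Gstm7 at 9 and Gstm5 at 20. A near copy of Gstm2, Gm6665, was listed at 0.257 FPKM, or 1.77% of the Gstm2 level.

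The enzymes that make glutathione overlapped between the groups. Gclc, the catalytic subunit of the rate-limiting ligase, had 23.8 ± 2.32 and 25.0 ± 2.79 FPKM. Gclm, its modifier subunit, had 40.9 ± 2.86 and 41.5 ± 3.12 FPKM, and Gss, the synthetase, 6.28 ± 0.894 and 6.02 ± 0.256 FPKM. Gsr, which reduces oxidised glutathione, stood at 58.1, 55.7 and 53.3 FPKM in control libraries and at 60.9, 66.0 and 64.4 FPKM in those labelled knockout. Its groups did not overlap, but the change missed the threshold (log2 change 0.19 ± 0.07, adjusted p = 0.199). Gpx1 had 1015 ± 99.1 and 943 ± 50.3 FPKM and Gpx4 161 ± 13.9 and 158 ± 10.1 FPKM.

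Among the remaining transferases, Mgst2, a membrane enzyme that also makes leukotriene C4, stood at 2.73, 3.37 and 3.60 FPKM in control libraries and at 2.39, 1.89 and 2.35 FPKM in those labelled knockout. Its libraries separated by group at a low level (log2 change -0.40 ± 0.15, adjusted p = 0.214). Gstp1 (136 ± 9.84 and 142 ± 3.61 FPKM) and Gsto1 (138 ± 13.3 and 138 ± 8.01 FPKM) were abundant and overlapped. Gsta4, Gstt2, Mgst1 and Mgst3 lay between 9.04 and 20.2 FPKM in every library and overlapped too. Of the glutaredoxins, which use glutathione to reduce protein disulfides or carry iron-sulfur clusters, Glrx was lower in every library labelled knockout without passing the test (14.2 ± 0.946 and 12.9 ± 0.197 FPKM). Glrx3 had 43.9 ± 4.15 and 46.6 ± 3.33 FPKM and Glrx5 27.8 ± 2.36 and 30.9 ± 1.75 FPKM, with overlap. Of 18 tested further glutathione genes, 0 were called by limma and 1 had an unadjusted p under 0.05, beside 16.4% of all genes. This was Slc25a39, which brings glutathione into mitochondria (58.2 ± 1.75 and 69.1 ± 4.99 FPKM, log2 change 0.24, adjusted p = 0.144). Pseudogene copies listed beside these genes were sizeable for Gpx4 (Gpx4-ps2, 39.2 FPKM, 24.5% of the Gpx4 level) and Gstp1 (summed copies 11.2%).

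None of the 11 thioredoxin and peroxiredoxin genes was called by limma, and 0 had an unadjusted p under 0.05. Txn1 stood at 351 ± 43.1 and 341 ± 20.8 FPKM, mitochondrial Txn2 at 44.8 ± 4.66 and 49.7 ± 2.47, and the reductases Txnrd1 at 38.5 ± 3.05 and 40.6 ± 1.56 and Txnrd2 at 9.59 ± 0.675 and 9.92 ± 0.820. Srxn1, the sulfiredoxin that repairs overoxidised peroxiredoxins, had 17.3 ± 0.634 and 16.2 ± 1.65 FPKM. These groups overlapped throughout. Among the peroxiredoxins, Prdx1 had 305 ± 29.2 and 315 ± 8.72 FPKM, cytosolic Prdx2 84.4 ± 7.41 and 84.7 ± 3.73, mitochondrial Prdx3 126 ± 16.7 and 126.5 ± 3.19, and Prdx4 of the endoplasmic reticulum 66.7 ± 8.13 and 65.9 ± 5.69. Prdx5 had 67.3 ± 5.44 and 62.8 ± 1.65 FPKM, and 19.1% of its exon bases are shared with Trmt112 on the opposite strand. Prdx6, which also acts on phospholipid peroxides, was the only gene of the group whose libraries separated, at 144, 152 and 160.1 FPKM in control libraries and 169, 174 and 160.4 FPKM in those labelled knockout.

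Thioredoxin is held in check by Txnip, which is not among the 46 genes. Txnip belongs to a list of 34 further genes linked to thioredoxin, methionine sulfoxide reduction, selenoproteins or sestrins. All 34 were tested; 1 rose, 1 fell and 32 were not called. Txnip stood at 305, 334 and 301 FPKM in control libraries and at 538, 415 and 436 FPKM in those labelled knockout, a rise of 0.56 ± 0.10 on the log2 scale (adjusted p = 0.0344). Selenot, a selenoprotein of the endoplasmic reticulum, fell from 12.4 ± 0.875 to 8.57 ± 0.268 FPKM (-0.48 ± 0.09, adjusted p = 0.0368). Both calls were lost when any 1 of the 6 libraries was left out (adjusted p 0.0593 to 0.117). Over all 6 lists of further pathway genes, 108 of 126 were tested and 2 were called (1.85%, beside 1.56% of all genes).

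Of the 3 dismutase and catalase genes, 1 fell and 2 were not called. Sod1 (ENSMUSG00000022982, chromosome 16, 90220754 to 90226329) encodes the copper-zinc superoxide dismutase of the cytosol. It stood at 148, 141 and 170.3 FPKM in control libraries and at 114, 120.5 and 111 FPKM in those labelled knockout. All 3 libraries labelled knockout lay under the lowest control. The mean was 153 ± 15.4 against 115 ± 4.94 FPKM, 1.33-fold lower (log2 change -0.40 ± 0.08, adjusted p = 0.0498). The call was lost without any 1 of the 6 libraries (adjusted p 0.0737 to 0.161) and held in only 2 of the other 8 alternatives, a mean of at least 5 FPKM and quantile normalization (0.0112 to 0.252 over the 8).

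**Figure D5:**
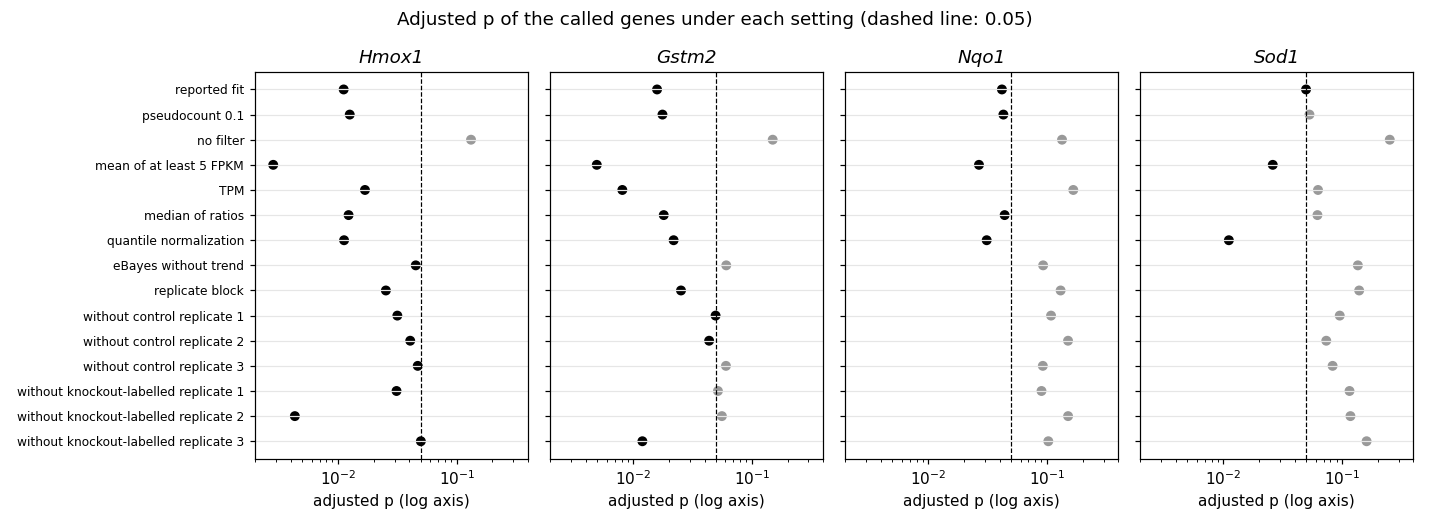
Adjusted p from limma (log axis) of the 4 called genes in the reported analysis and in each of 14 alternatives; the dashed line is 0.05, black points lie under it and grey points do not. Hmox1 is under the line in 13 alternatives, Gstm2 in 9, Nqo1 in 4 and Sod1 in 2.

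The other enzymes of the group were not called. The mitochondrial dismutase Sod2 had 37.7 ± 1.40 and 40.3 ± 3.54 FPKM and catalase, Cat, 87.6 ± 2.71 and 91.2 ± 4.90 FPKM, both with overlap. Cat, Nfe2l2, Gss and Srxn1 share chromosome 2 with Thbs1, the nearest being Cat at 14.6 Mb. None of those 4 was called by limma, and 0 of them had an unadjusted p under 0.05. Among 8 tested genes that make superoxide or deliver copper, 0 were called by limma and 3 had an unadjusted p under 0.05, beside 16.4% of all genes. Ncf4 (10.2 ± 1.90 and 6.24 ± 0.881 FPKM, log2 change -0.62, adjusted p = 0.0758) and Ncf1 (2.85 ± 0.526 and 1.62 ± 0.452 FPKM, -0.56, adjusted p = 0.160), cytosolic subunits of the phagocyte NADPH oxidase, had the smallest p. The catalytic subunit Cybb stayed at or under 0.21 FPKM. Of 13 tested genes that supply NADPH, 0 were called and 3 had an unadjusted p under 0.05, again beside 16.4% of all genes. They did not share a direction. Taldo1, the transaldolase of the pentose phosphate pathway, was lower in every library labelled knockout (132 ± 11.5 and 108 ± 2.57 FPKM, log2 change -0.28, adjusted p = 0.113). Mthfd1 (38.7 ± 1.57 and 44.6 ± 0.699 FPKM, 0.20, adjusted p = 0.174) and Mthfd2 (6.96 ± 0.461 and 8.93 ± 1.07 FPKM, 0.32, adjusted p = 0.199), enzymes of folate metabolism, were higher in every one.

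None of the 4 iron and metal binding genes was called by limma, and 1 had an unadjusted p under 0.05. The ferritin chains, which store iron, were level between the groups within their spread, with Fth1 at 1893 ± 180 and 1883 ± 104 FPKM and Ftl1 at 258 ± 12.6 and 250.3 ± 21.5 FPKM. Mt1 encodes a metallothionein, a small cysteine-rich protein that binds zinc and copper. It stood at 20.9, 22.4 and 25.5 FPKM in control libraries and at 27.4, 37.3 and 33.99 FPKM in those labelled knockout. Its groups did not overlap, and the change missed the threshold (22.9 ± 2.32 and 32.9 ± 5.03 FPKM, log2 change 0.50 ± 0.12, adjusted p = 0.0829). It was called without library 1 labelled knockout (0.0330), with a mean of at least 5 FPKM (0.0402) and under TPM (0.0126), and reached 0.332 with no filter. Mt2, its neighbour on chromosome 8, had 0.933 ± 0.636 and 0.653 ± 0.352 FPKM. This level may be too low, since 73.5% of the Mt2 exon bases are shared with a gene on the opposite strand. Of 16 tested genes of iron and metal handling, 0 were called by limma and 2 had an unadjusted p under 0.05, beside 16.4% of all genes. The smaller p was that of the zinc and iron importer Slc39a14 (log2 change 0.36, adjusted p = 0.232).

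An exact permutation test over the 6 libraries gave 0.1, two-sided, for each of the 8 genes with separate groups named in full. This is the smallest value that 3 against 3 can give. Any gene whose groups do not overlap reaches it, so the test adds nothing to their selection.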

How the data were processed

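The deposited table holds FPKM, made by the authors, for 52183 genes in 6 libraries, 3 per group; 0 other columns hold values. Per the submitters' processing notes the tools were FastQC 0.11.5, STAR and edgeR and the builds GRCm38 and mm10; what each was used for, and which annotation, is not stated in the labels. The library size used for scaling was read from FPKM steps of genes with at most 400 bp of exon, of which 99.5% to 99.8% were whole within 0.1 read. On it, 1 read of a 1 kb gene is worth 0.0324 to 0.0440 FPKM, and such read numbers cover counting error only.

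The 12555 genes that reached 1 FPKM in 3 or more libraries entered limma 3.58.1 (R 4.3.3) as log2(FPKM + 1), with a linear fit, eBayes with an intensity trend and two-sided tests, with Benjamini-Hochberg adjustment over all of them and a threshold of 0.05. This scale understates the change of low genes. Log2 changes carry limma's moderated standard errors, and levels the SD over 3 libraries. The fit was tested on simulated data. Genes given in full have an adjusted p under 0.05, or an unadjusted p under 0.05 with groups that do not overlap; further lists give their called genes and up to 2 with the smallest p. Gpx3, the regulators and other genes are given by level. Mthfd2 and the marker and handling-stress genes named were chosen after their values were seen. The genes and lists were chosen with earlier results of these data known. Positions, exons and coding sequences come from GENCODE M21 (GRCm38); near copies were coding matches of at least 95% over at least 100 bases (BLAST 2.17.0). Alternatives were no filter, a pseudocount of 0.1, a filter on a mean of 5 FPKM, TPM, median of ratios, quantile normalization, no trend, the replicate block and each library left out.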

Additional observations from a re-analysis of the deposited data

How the results depend on the processing

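Calls in this comparison depend on the filter, the scaling and single libraries, and the number of libraries limits every call. Over all genes, 71 were called higher and 125 lower. These counts became 8 and 16 with no filter, 24 and 65 without the intensity trend, and 16 to 38 and 43 to 77 when 1 library was left out. With a mean of at least 5 FPKM 112 were called higher, and under TPM 2016. Of the 46 genes, 1 was called higher and 3 lower. The count higher became 0 with no filter and without the trend, 2 with a mean of at least 5 FPKM (where 43 of the genes were tested), 14 under TPM, and 0 to 1 when 1 library was left out (0 without control library 3 or library 2 labelled knockout; without library 1 labelled knockout it was Mt1, not Gstm2). The count lower became 0 with no filter, and 1 under TPM, without the trend and in each analysis that left out 1 library. The filter alternative tested 35246 genes, which raises the adjustment. The median change of the 46 genes was 0.21 under TPM, where that of all genes was 0.19, and -0.06 to 0.04 when 1 library was left out, the lowest without control library 1. Relative to the median of all genes, Nqo1 and Sod1 stood at -0.39 each under TPM. The sign of 16 genes turned under TPM, and of 1 after centring. Abcc1 turned to 0.01 under TPM. Apart from the stated arithmetic, the cause was not tested.

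Libraries of the 2 groups share replicate numbers, but the labels state no pairing. Deviations from the group mean correlated at -0.11, 0.037 and -0.079 in same-numbered libraries. No control library correlated best with its own number, but with 3 libraries per group this cannot exclude a pairing. With the replicate number as a block, 27 genes were called higher and 54 lower over all genes, and of the 46 genes 1 was called higher, Gstm2, and 1 lower, Hmox1; Nqo1 (adjusted p = 0.131) and Sod1 (0.140) missed the threshold.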
